A study of Mus musculus with 6 samples.

Results

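The ATP-binding cassette (ABC) transporter superfamily was followed in MPC, a mouse gastric adenocarcinoma cell line, and in MPC-PTX, its derivative resistant to paclitaxel (PTX). Members were taken by gene symbol: every row of the count table named Abca, Abcb, Abcc, Abcd, Abce, Abcf or Abcg with a digit, together with Cftr, Tap1 and Tap2. This gave 53 of 21959 genes. There were 16 ABCA members, 12 ABCB members with Tap1 and Tap2, 11 ABCC members with Cftr, 4 ABCD members, 1 ABCE member, 3 ABCF members and 6 ABCG members.

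ABC proteins bind and hydrolyse ATP at paired nucleotide-binding domains, and most couple this to moving a substrate across a membrane. P-glycoprotein, encoded in the mouse by the neighbouring copies Abcb1a and Abcb1b, exports hydrophobic drugs and counts PTX among its classical substrates. Relatives load lipids into lipoproteins and bile, carry peptides into the endoplasmic reticulum, serve mitochondria and peroxisomes or, as Cftr, conduct chloride, while the ABCE and ABCF proteins span no membrane and act at ribosomes.

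MPC and MPC-PTX are the sample labels' names for the lines that the study calls MTC and MTC-R. Both carry the label genotype CDH1-/-;Trp53-/- and descend from gastric organoids of a C57BL/6J mouse with floxed Trp53 and Cdh1 alleles and Mist1-CreER, a Cre driven by a promoter of gastric secretory cells, recombined in culture and then grown under the skin of BALB/c nude mice. MPC was cultured without PTX, and MPC-PTX was raised from it over more than 30 cycles of PTX. Each line went through selection of a clone, so each stands for 1 clone, and any difference between the lines includes what separates 2 clones. RNA was measured in 3 libraries per line, all with the same batch label. Whether the 3 libraries of a line came from separate cultures is not stated in the labels, so the p-values measure the spread between these libraries, which may be technical.

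The libraries held 16574580 to 23148182 counts, of which the ABC members took 0.199% to 0.203% in MPC and 0.242% to 0.244% in MPC-PTX. MPC replicate 3 stood apart from the other MPC libraries: over 11776 genes, its log2 ratio to them had a Spearman rho of -0.61 with GC content and 0.48 with transcript length, as a description. The biological coefficient of variation was 17.9% in MPC and 3.01% in MPC-PTX. Of the epithelial markers, all 7 were tested and 6 were lower in MPC-PTX, with a summed level of 9260 to 10704 CPM (counts over the TMM-scaled library size) in MPC and 5593 to 5781 CPM in MPC-PTX. Secreted products of the gastric mucosa were absent or nearly so in both lines: Tff1, Tff2, Gkn2 and Pgc had 0 counts in every library, and Muc5ac and Muc6 had 2 or fewer. The 7 leukocyte markers summed to 0.309 to 0.850 CPM in MPC and 0.726 to 0.902 CPM in MPC-PTX. The part of these shifts in the values below was not tested, and in bulk RNA fewer cells of a type and less RNA per cell cannot be told apart. Gene counts do not show the deleted exons: Cdh1 had 2561, 2555 and 2812 counts in MPC and 3068, 3018 and 2217 in MPC-PTX, and Trp53 had 98, 63 and 120 and then 142, 130 and 111.

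Of the 53 members, 46 had at least 1 count and 31 passed the filter on low counts and were tested. Relative to MPC, 9 were higher and 9 were lower in MPC-PTX by edgeR's quasi-likelihood test at 0.05 after Benjamini-Hochberg adjustment over 11795 genes, the source of every adjusted p given here. The same rule called 14.1% of all tested genes higher and 15.6% lower. The 2 directions together held 18 of the 31 members, against 29.7% of all tested genes. By the fold rule, a log2 fold change beyond 1 in either direction with an edgeR p under 0.05 before adjustment, 5 members were higher, against 3.77% of all tested genes, and 4 were lower, against 4.34%. The median log2 fold change was 0.10 over the tested members and 0.04 over all tested genes. Lack of overlap in CPM between the lines, given for members below, was common. It held for 46.9% of all tested genes (24.2% higher and 22.7% lower) and for 21 of the 31 tested members. The count of higher members fell to 4 without MPC replicate 2 or without MPC-PTX replicate 2 and to 5 without MPC-PTX replicate 1 or 3, and the count of lower members fell to 5 without any 1 of the MPC-PTX libraries. Abcb4 passed the filter through the MPC-PTX libraries only and Abcg2 through the MPC libraries only, so these 2 had to differ to some degree. Cftr and Abca13 reached the filter level in 3 MPC-PTX libraries and in 2 MPC libraries. The filter asked for 3 libraries, so Cftr and Abca13 also owed their test to the line where they were higher. Called members were found on both sides in 3 subfamilies: ABCA with 1 higher and 3 lower of 7 tested, ABCC with 1 and 2 of 6, and ABCG with 1 and 1 of 2. In ABCB, 4 of 9 tested members were higher and 0 lower.

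**Figure D1:**
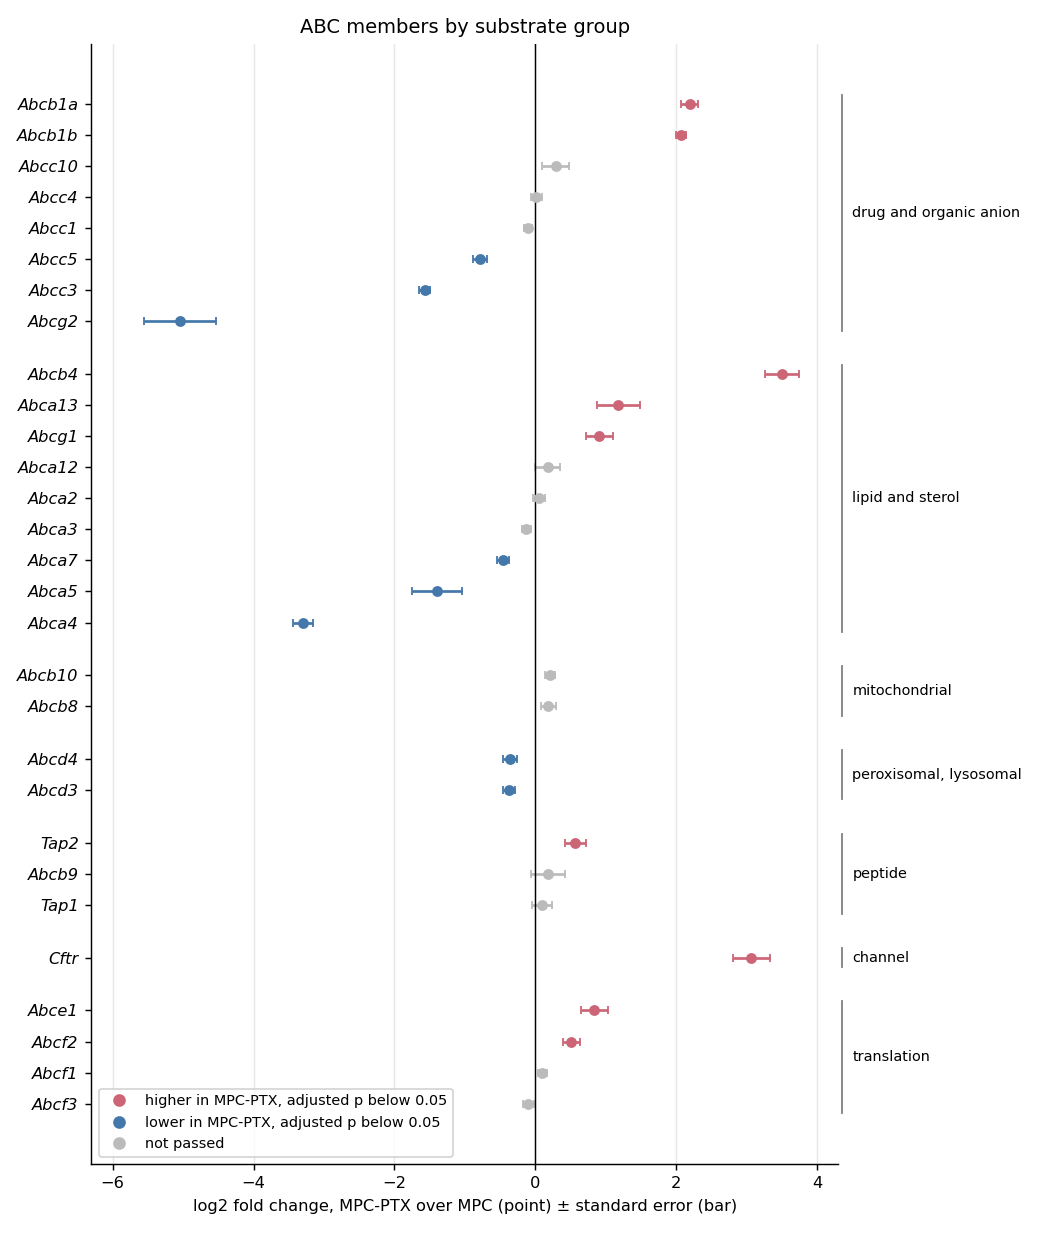
Log2 fold change of the tested ABC members named in the text, MPC-PTX over MPC, with its standard error, grouped by substrate and ordered by size within a group. Red points passed the adjusted p of 0.05 upwards, blue points downwards and grey points did not pass; Abcb4 (3.50) and Cftr (3.07) lie farthest to the right and Abcg2 (-5.04) and Abca4 (-3.29) farthest to the left.

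Among the drug and organic anion exporters, the genes of P-glycoprotein rose and 3 other exporters fell. The list held 10 members, of which 8 were tested, with 2 higher, 3 lower, 3 that did not pass and a median log2 fold change of -0.05. Abcb1a lies at 8660077 to 8748575 of chromosome 5 (GRCm38). It had 300, 341 and 452 counts in MPC and 1901, 1886 and 1460 in MPC-PTX. Every MPC-PTX library lay far above every MPC library, at 84.3 ± 2.84 CPM against 18.4 ± 2.98 (SD, n = 3 per line). The log2 fold change was 2.19 (SE 0.12, edgeR adjusted p = 3.81e-05), or 4.57-fold. Abcb1b (chromosome 5, 8798147 to 8866315), the neighbouring copy, had 1269, 1249 and 1543 counts in MPC and 6675, 6403 and 4931 in MPC-PTX. Its level went from 68.7 ± 4.99 to 289 ± 3.92 CPM, again without overlap, with a log2 fold change of 2.07 (SE 0.07, edgeR adjusted p = 8.81e-06), or 4.21-fold.

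The coding sequences of Abcb1a and Abcb1b, 3828 bases each, were identical at 88.1% of aligned bases, and 4.41% of the 150-base stretches of the Abcb1a transcript also occurred in Abcb1b. Reads from such stretches cannot be placed by sequence, and how they were counted is not given in the sources used here, so the split between the copies is less certain than their sum. Abcb1a took 19.1%, 21.4% and 22.7% of the summed counts of the 2 copies in MPC and 22.2%, 22.8% and 22.8% in MPC-PTX. The lines overlapped in this share (difference of 1.51 percentage points, exact permutation test, two-sided, p = 0.2; the smallest p that 3 libraries against 3 allow is 0.1). Of the Abcb1a exon bases, 10.1% also lie opposite exons of Gm42686, and the strand setting is not stated. Abcb4 was less alike, with 76.2% identity to Abcb1a and 0 shared stretches of 150 bases.

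The 250 bases upstream of the RefSeq transcript starts are shown for the 3 neighbours on chromosome 5 that rose and for Cftr and Abcg2, whose changes were among the largest in either direction. Sequences are from RefSeq on GRCm38.p6, plus strand, 5′ to 3′, and capitals mark the CCAAT box (CCAAT, which reads as ATTGG on the opposite strand) and the GC box (GGGCGG, which reads as CCGCCC on the opposite strand). A TATA box (TATAAA, which reads as TTTATA on the opposite strand) was searched and not found in these 5 windows. The windows are chr5:8566841-8567090 for Abcb1a, chr5:8797897-8798146 for Abcb1b, chr5:8893471-8893716 for Abcb4 (cut to 246 bases), chr6:18170437-18170686 for Cftr and chr6:58640296-58640545 for Abcg2. The RefSeq start of Abcb1a lies 92986 bases upstream of the GENCODE gene start, and the Abcg2 window belongs to a start 56023 bases inside the GENCODE gene. Abcg2 has 3 RefSeq windows, with 3, 10 and 23 CpG, and only the one with 23 is shown.
Abcb1a: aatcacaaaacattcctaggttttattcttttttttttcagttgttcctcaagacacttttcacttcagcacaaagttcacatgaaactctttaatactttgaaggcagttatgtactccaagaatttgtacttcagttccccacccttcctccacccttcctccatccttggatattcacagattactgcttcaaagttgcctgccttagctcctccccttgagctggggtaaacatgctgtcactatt
Abcb1b: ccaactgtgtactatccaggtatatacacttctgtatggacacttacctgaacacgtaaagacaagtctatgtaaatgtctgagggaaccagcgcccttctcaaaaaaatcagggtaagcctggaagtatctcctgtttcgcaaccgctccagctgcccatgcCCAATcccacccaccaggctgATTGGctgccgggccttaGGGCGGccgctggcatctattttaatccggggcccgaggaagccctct
Abcb4: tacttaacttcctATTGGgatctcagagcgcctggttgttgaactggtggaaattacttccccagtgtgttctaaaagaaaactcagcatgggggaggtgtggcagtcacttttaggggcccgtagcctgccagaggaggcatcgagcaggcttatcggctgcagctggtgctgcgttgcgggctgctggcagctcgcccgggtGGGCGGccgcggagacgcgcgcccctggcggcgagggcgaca
Cftr: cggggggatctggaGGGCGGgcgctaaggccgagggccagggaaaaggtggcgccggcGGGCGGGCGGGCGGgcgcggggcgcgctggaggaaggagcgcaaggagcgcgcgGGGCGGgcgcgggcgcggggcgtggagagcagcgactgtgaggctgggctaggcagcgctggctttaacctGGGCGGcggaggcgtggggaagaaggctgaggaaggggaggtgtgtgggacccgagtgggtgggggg
Abcg2: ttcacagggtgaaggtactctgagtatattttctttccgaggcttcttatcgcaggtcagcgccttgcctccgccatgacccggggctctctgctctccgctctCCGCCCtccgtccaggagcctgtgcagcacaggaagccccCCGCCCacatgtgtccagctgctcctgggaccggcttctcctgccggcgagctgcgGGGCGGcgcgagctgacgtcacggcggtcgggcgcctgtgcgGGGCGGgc
The letters differed among the 3 neighbours. The Abcb1b window held CCAAT boxes at -87 and -66 and a GC box at -48, counted from the transcript start, the Abcb4 window a CCAAT box at -237 and a GC box at -46, and the Abcb1a window none of these and 0 CpG dinucleotides. The Cftr window held 6 GC boxes, of which 3 overlap one another, and the Abcg2 window held 4. Of all 32841 promoter windows, 33.9% held a CCAAT box, 32.7% a GC box and 12.4% a TATA box, and of the 47 windows of the 40 members with an entry, 29.8%, 46.8% and 10.6%. Such a match describes the letters only.

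Abcb1a and Abcb1b together took 3.53%, 3.64% and 4.20% of the summed ABC level (CPM per kilobase of the longest coding transcript) in MPC and 13%, 13.3% and 13.5% in MPC-PTX. The lines did not overlap, and the difference was 9.47 percentage points (exact permutation test, two-sided, p = 0.1, the smallest possible). Without the ribosome-associated ABCE and ABCF members, the share was 7.37%, 6.99% and 8.02% in MPC and 28.9%, 29.3% and 29.9% in MPC-PTX. The ABC members other than Abcb1a and Abcb1b took 0.192%, 0.190% and 0.194% of all counts in MPC and 0.205%, 0.206% and 0.205% in MPC-PTX, so most of the net difference in the superfamily's counts lay in Abcb1a and Abcb1b. The sum over the other members is a net one, in which Abce1 and Abcf2 were higher and Abcc3 and Abcd3 lower. The shares of ABCA, ABCC and ABCD were lower in MPC-PTX. ABCC took 16.3% to 18.6% in MPC and 8.54% to 8.71% in MPC-PTX, ABCD 10.5% to 12.7% and 7.26% to 7.44%, and ABCA 6.24% to 6.43% and 4.42% to 4.55%. A share also falls where another part of the same sum rises. In summed CPM, MPC and then MPC-PTX, ABCC stood at 490.5 to 527 and 322 to 327. ABCD stood at 189 to 222 and 156 to 159, and ABCA at 229 to 243 and 204 to 211.

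**Figure D2:**
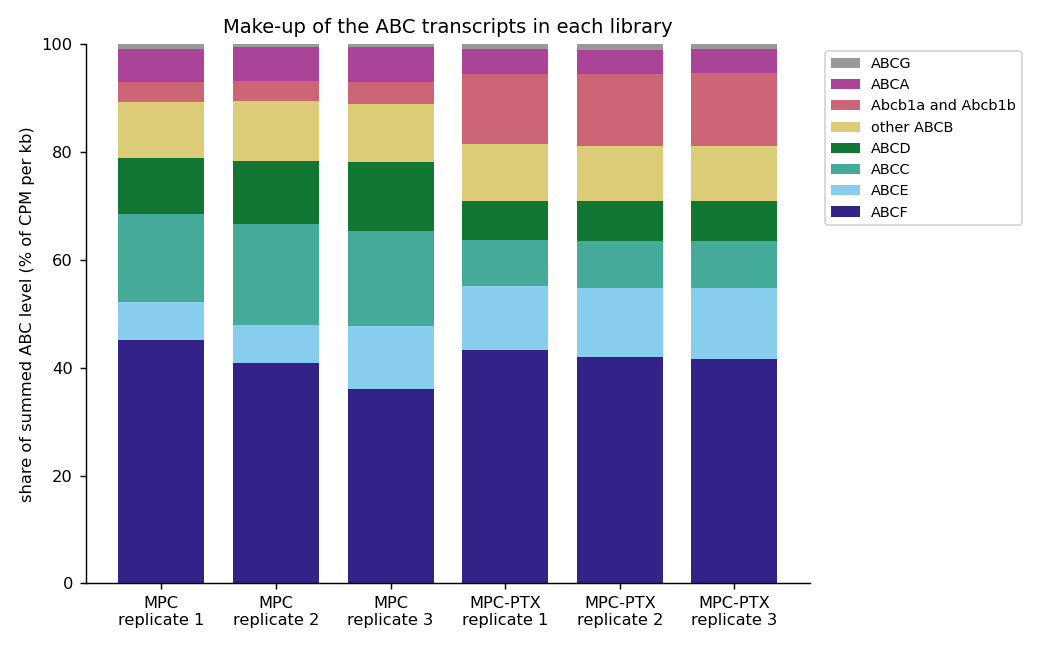
Make-up of the summed ABC level in each of the 6 libraries, in percent of CPM per kilobase of transcript, with Abcb1a and Abcb1b drawn apart from the other ABCB members. The red band of Abcb1a and Abcb1b is 3.53% to 4.20% high in the MPC libraries and 13% to 13.5% in the MPC-PTX libraries, and the ABCC band is narrower in all 3 MPC-PTX libraries.

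Abcc3, an exporter of organic anions and glucuronides on the basolateral side of epithelia, had 4232, 5172 and 5033 counts in MPC and 1872, 1845 and 1408 in MPC-PTX. The lines were well apart, at 244 ± 21 and 82.3 ± 2.01 CPM, with a log2 fold change of -1.57 (SE 0.08, edgeR adjusted p = 2.73e-05), or 2.97-fold lower. Abcc5, which exports cyclic nucleotides and other anions, had 817, 813 and 1031 counts in MPC and 642, 551 and 436 in MPC-PTX, a log2 fold change of -0.79 (SE 0.09, edgeR adjusted p = 0.00106) without overlap in CPM. Abcg2, the breast cancer resistance protein, had 25, 24 and 25 counts in MPC and 1, 0 and 1 in MPC-PTX. The ratio of depth-scaled counts, MPC to MPC-PTX, was 38.1 (95% Clopper-Pearson interval 10.2 to 320, counting error only), and Abcg2 was a gene of low level in both lines (edgeR adjusted p = 0.000530).

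The remaining exporters of the list gave no call. Abcc1, the multidrug resistance protein that exports glutathione conjugates, had 3038, 2923 and 3160 counts in MPC and 3310, 3248 and 2401 in MPC-PTX. This was 155 ± 5.89 against 143 ± 2.63 CPM, a log2 fold change of -0.11 (SE 0.06, edgeR adjusted p = 0.211), although the lines did not overlap in CPM. Abcc4, which exports cyclic nucleotides and prostaglandins, had overlapping values and a log2 fold change of 0.01 (SE 0.08, edgeR adjusted p = 0.925), with a sign that changed among settings. Abcc10, for which taxanes are known substrates, had 89, 84 and 110 counts in MPC and 135, 157 and 77 in MPC-PTX, with overlap and a log2 fold change of 0.29 (SE 0.19, edgeR adjusted p = 0.287). Abcc2 and Abcc12 were not tested: Abcc2 had 2 counts in all, and Abcc12 had 8, 5 and 2 in MPC and 1, 0 and 1 in MPC-PTX, a ratio of 7.72 (95% Clopper-Pearson interval 1.80 to 69.6).

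The lipid and sterol transporters were split, with 3 higher, 3 lower and 3 that did not pass among 9 tested of 17, and a median log2 fold change of 0.05. Abcb4, which moves phosphatidylcholine into bile and lies beside Abcb1b (chromosome 5, 8893717 to 8959231), had 5, 8 and 5 counts in MPC and 79, 80 and 60 in MPC-PTX. The ratio of depth-scaled counts, MPC-PTX to MPC, was 11.8 (95% Clopper-Pearson interval 7.30 to 20.3), with an edgeR adjusted p of 0.000112. Abcg1, which passes cholesterol to high-density lipoprotein, had 488, 317 and 326 counts in MPC and 836, 835 and 589 in MPC-PTX. It went from 19.3 ± 5.74 to 36.1 ± 1.37 CPM without overlap (log2 fold change 0.90, SE 0.19, edgeR adjusted p = 0.0120), a call lost without MPC replicate 2 or MPC-PTX replicate 2 (edgeR adjusted p = 0.0542 and 0.0517). Abca13 had 14, 13 and 9 counts in MPC and 30, 27 and 29 in MPC-PTX (log2 fold change 1.18, SE 0.30, edgeR adjusted p = 0.0237) and was low in both lines. This call was lost under 6 of 12 settings: with DESeq2 (adjusted p = 0.0531), with the GC and length correction (log2 fold change 0.79, edgeR adjusted p = 0.164), and without MPC replicate 2 or any 1 of the MPC-PTX libraries (edgeR adjusted p = 0.0580 to 0.0899).

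Abca4, known as the retinoid flippase of photoreceptors, had 206, 215 and 215 counts in MPC and 25, 22 and 21 in MPC-PTX. The MPC libraries were closely alike at 10.8 ± 0.401 CPM and the MPC-PTX libraries lay at 1.10 ± 0.131, a log2 fold change of -3.29 (SE 0.14, edgeR adjusted p = 1.84e-05), or 9.81-fold lower. Abca5, a lysosomal and endosomal member, had 151, 249 and 460 counts in MPC and 136, 122 and 85 in MPC-PTX. The MPC libraries spread widely, at 14.3 ± 7.16 CPM, and lay above the 5.45 ± 0.382 CPM of MPC-PTX (log2 fold change -1.39, SE 0.35, edgeR adjusted p = 0.0262). Its call was lost without MPC replicate 2 or any 1 of the MPC-PTX libraries (edgeR adjusted p = 0.0583 to 0.0908). Abca7, a phospholipid transporter tied to phagocytosis, had 696, 624 and 675 counts in MPC and 572, 560 and 407 in MPC-PTX (log2 fold change -0.46, SE 0.09, edgeR adjusted p = 0.00774), without overlap in CPM. Abca2, Abca3 and Abca12 had log2 fold changes of 0.05, -0.13 and 0.18 and did not pass (edgeR adjusted p = 0.713, 0.180 and 0.499). Abca3, the surfactant lipid transporter, did not overlap between the lines, whereas Abca2 and Abca12 did. Abca1, the partner of Abcg1 in sterol efflux, was not tested, with 7, 1 and 2 counts in MPC and 5, 8 and 9 in MPC-PTX.

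Of the 6 transporters of the bile canaliculus, the apical face of hepatocytes, Abcb4 was higher and Abcg2 lower as given above, and the others were at or near 0. Abcb11, the bile salt export pump, and Abcg8 had 0 counts in every library, and Abcc2 and Abcg5 had at most 2 in any. A count of 0 allows a level of up to 0.130 to 0.181 CPM per library (3 counts of the total, counting error only).

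**Figure D3:**
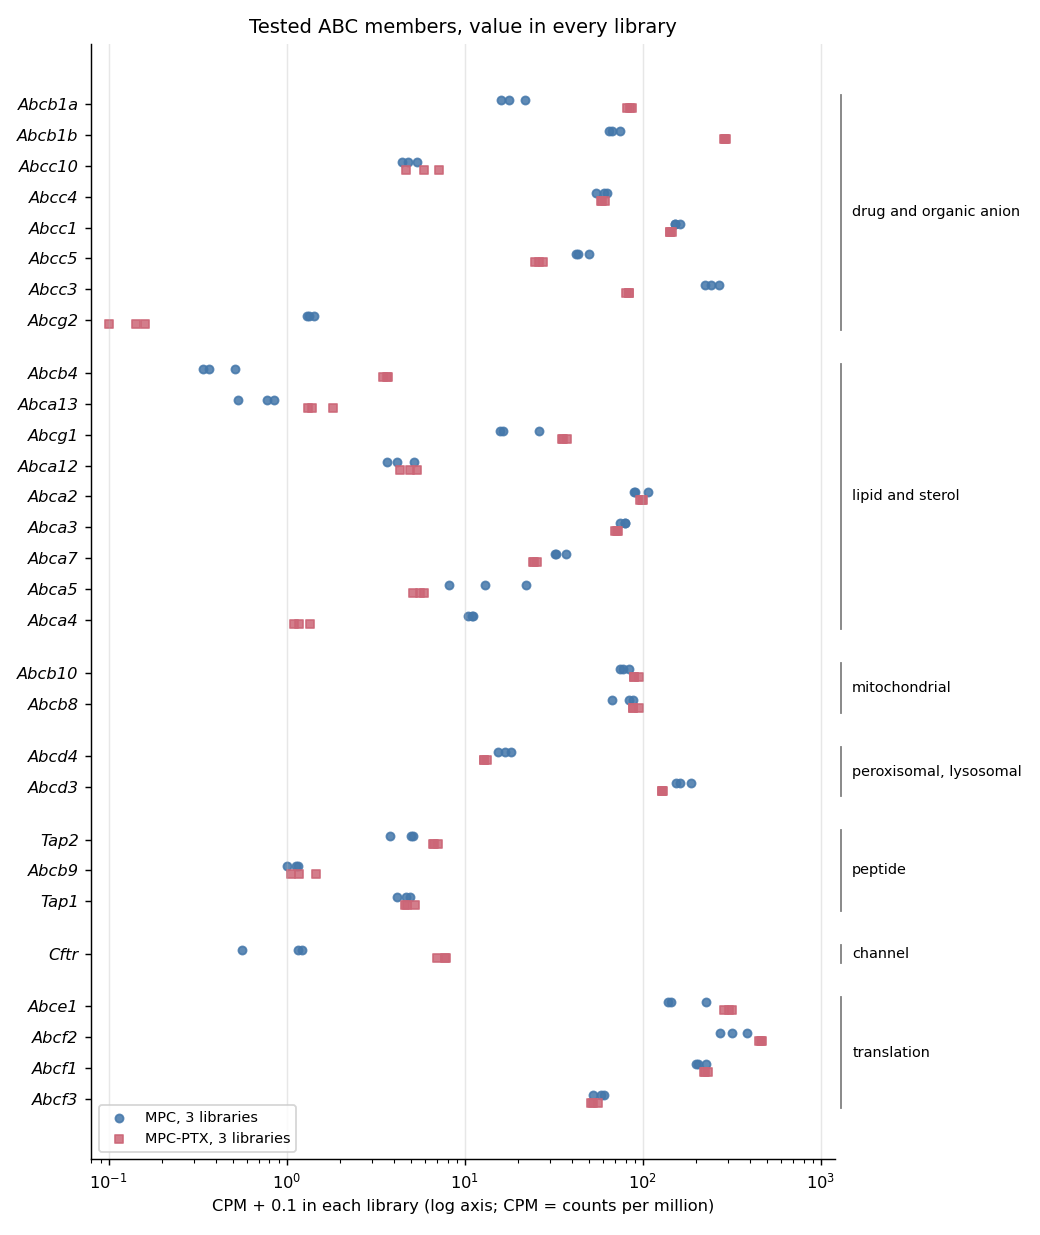
CPM + 0.1 of the tested ABC members named in the text in the 3 MPC libraries (blue circles) and the 3 MPC-PTX libraries (red squares), on a log axis and in substrate groups. The lines are most widely apart for Abcg2, Abcb4 and Abca4, and the MPC points of Abca5 and Abce1 are spread more widely than their MPC-PTX points.

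Among the mitochondrial transporters, the members described here did not pass. Abcb10, needed for heme synthesis, had 1408, 1623 and 1616 counts in MPC and 2219, 1990 and 1502 in MPC-PTX, apart in CPM but not passed (log2 fold change 0.21, SE 0.07, edgeR adjusted p = 0.0602). Abcb8 had a log2 fold change of 0.18 (edgeR adjusted p = 0.253). Abcb6, a porphyrin transporter, had 1, 5 and 0 counts in MPC and 1, 1 and 2 in MPC-PTX. In GENCODE M21, 55.2% of its exon bases lie in exons of Gm29253, a gene model on the same strand. Gm29253 has no row in the count table, and the part of this overlap in the low count of Abcb6 was not tested.

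Abcd3 and Abcd4 were lower in MPC-PTX by small amounts. Abcd3, which imports branched and long-chain acyl groups into peroxisomes, had 2891, 3153 and 3906 counts in MPC and 3002, 2893 and 2166 in MPC-PTX. This was 168 ± 17.7 against 129 ± 1.16 CPM, without overlap (log2 fold change -0.38, SE 0.08, edgeR adjusted p = 0.0133). Abcd4, which takes part in the lysosomal handling of cobalamin, had 288, 350 and 347 counts and then 298, 295 and 215 (log2 fold change -0.37, SE 0.10, edgeR adjusted p = 0.0287). The call was lost under 4 of 13 settings for Abcd4 and 3 for Abcd3, without a change of direction: both without any 1 of the MPC-PTX libraries (edgeR adjusted p = 0.0944 to 0.115 for Abcd4 and 0.0596 to 0.0641 for Abcd3), and Abcd4 also without MPC replicate 2 (edgeR adjusted p = 0.0974).

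Tap1 and Tap2 form the pump that carries peptides to class I molecules in the endoplasmic reticulum. Tap2 (chromosome 17, 34203527 to 34216321) had 94, 95 and 77 counts in MPC and 154, 154 and 110 in MPC-PTX, from 4.53 ± 0.721 to 6.69 ± 0.224 CPM without overlap (log2 fold change 0.56, SE 0.15, edgeR adjusted p = 0.0282). The call of Tap2 was lost with DESeq2 (adjusted p = 0.0542) and without MPC replicate 2 or any 1 of the MPC-PTX libraries (edgeR adjusted p = 0.0579 to 0.109). Tap1 overlapped between the lines, with 76, 93 and 95 counts and then 108, 114 and 76 (log2 fold change 0.09, SE 0.14, edgeR adjusted p = 0.648). Abcb9, a lysosomal peptide transporter, had at most 30 counts in any library and a log2 fold change of 0.18 (SE 0.25, edgeR adjusted p = 0.615). Of the exon bases of Tap2, 14.1% lie opposite exons of Gm15821 and, without a stated strand setting, reads of the 2 cannot be told apart.

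Cftr (chromosome 6, 18170687 to 18322768), the chloride and bicarbonate channel mutated in cystic fibrosis, had 21, 9 and 22 counts in MPC and 180, 152 and 130 in MPC-PTX. Its level went from 0.879 ± 0.361 to 7.42 ± 0.493 CPM without overlap, a log2 fold change of 3.07 (SE 0.26, edgeR adjusted p = 0.000245), or 8.37-fold. Abcc8 and Abcc9, the sulfonylurea receptors that regulate potassium channels, were not tested and had at most 6 counts in any library.

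Of the 4 ABCE and ABCF proteins, 2 were higher and 2 did not pass. Abce1, which splits ribosomes for recycling, had 2693, 2681 and 4735 counts in MPC and 6686, 6769 and 5321 in MPC-PTX. MPC replicate 3 was the highest MPC library and still below all MPC-PTX libraries, at 170 ± 50.2 against 302 ± 15.5 CPM (log2 fold change 0.83, SE 0.19, edgeR adjusted p = 0.0180). Abcf2 (chromosome 5, 24565345 to 24577467) had 7223, 6183 and 5623 counts in MPC and 10977, 10254 and 7597 in MPC-PTX, 324 ± 57.0 against 461 ± 8.86 CPM without overlap (log2 fold change 0.51, SE 0.12, edgeR adjusted p = 0.0179). Abcf1, which works in translation initiation, and Abcf3 had log2 fold changes of 0.10 and -0.10 with overlapping values (edgeR adjusted p = 0.318 and 0.394). The calls of Abce1 and Abcf2 were each lost under 4 of 13 settings, without MPC replicate 2 or any 1 of the MPC-PTX libraries (edgeR adjusted p = 0.0518 to 0.0666 and 0.0602 to 0.0758).

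Per kilobase of the longest coding transcript, Abcf2 was the most abundant member in both lines, at 126 ± 22.2 CPM per kilobase in MPC and 179 ± 3.45 in MPC-PTX. In MPC it was followed by Abcf1 (66.4 ± 4.77), Abcc3 (48.8 ± 4.20), Abcd3 (48.1 ± 5.06) and Abce1 (44.7 ± 13.2), where the ranges of Abcc3 and Abcd3 overlapped, as did those of Abcd3 and Abce1. In MPC-PTX it was followed by Abce1 (79.7 ± 4.08), Abcf1 (71.2 ± 2.17), Abcb1b (67.1 ± 0.909) and Abcd3 (37.0 ± 0.333), with no overlap between neighbours in this order. Abcb1b thus stood in place 10 in MPC, at 15.9 ± 1.16 CPM per kilobase, and in place 4 in MPC-PTX, the highest of the members that span a membrane. Abcb1a went from place 19 to place 10, where it overlapped Abcf3 and Abcc3, and Abcc3 from place 3 to place 11. In MPC-PTX Cftr (1.18 ± 0.0782) and Abcb4 (0.862 ± 0.0303) stood in places 23 and 25 of 31.

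**Figure D4:**
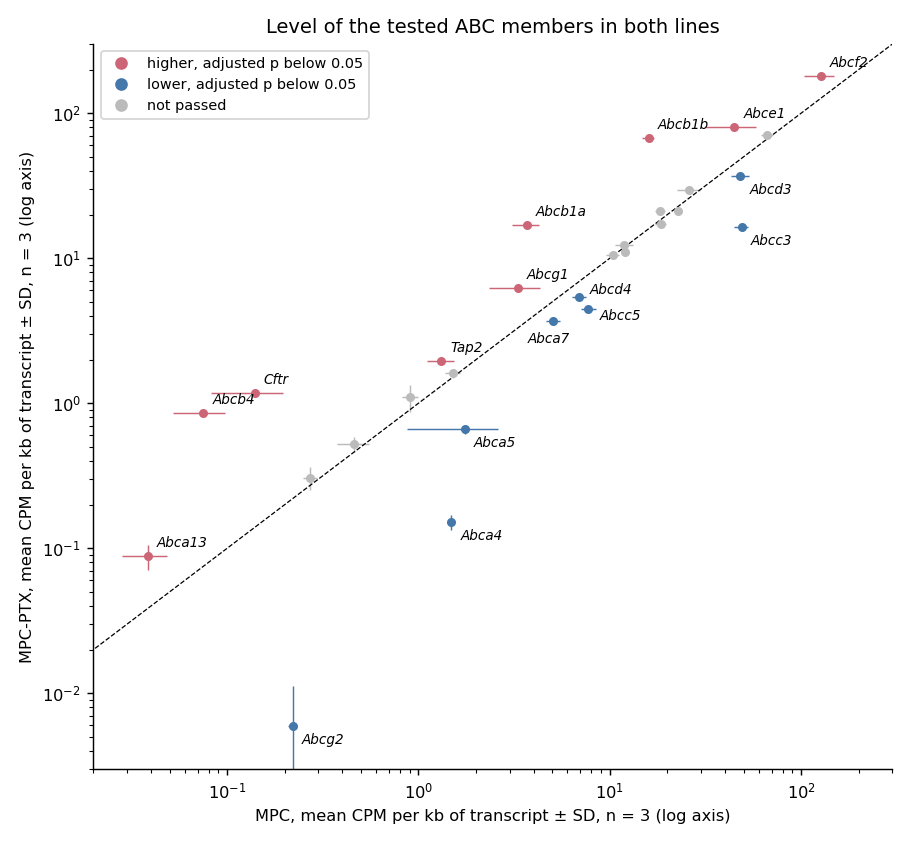
Mean level of the tested ABC members named in the text, in CPM per kilobase of transcript, MPC against MPC-PTX, with SD over 3 libraries as bars and equal levels as the dashed line, on log axes. Abcb1b and Abcb1a lie above the line at high and middling levels, Cftr, Abcb4 and Abca13 above it at low levels, and Abcc3, Abca4 and Abcg2 below it.

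In all, 22 members were not tested. Of these, 7 had 0 counts in every library (Abca15, Abca16, Abcb11, Abcc6, Abcd2, Abcg3 and Abcg8), and the other 15 had at most 9 counts in any library. Abca6, Abca8a, Abca8b and Abca9 lie in a cluster with Abca5 on chromosome 11 and had at most 3 counts in any library, far below the Abca5 counts given above. Abca14, Abca17 and Abcb5 had at most 4, and Abcg4, a sterol transporter of brain, 2, 2 and 1 in MPC and 7, 1 and 3 in MPC-PTX. Several untested members serve substrates of specialised tissues, such as bile salts for Abcb11 and plant sterols for Abcg5 and Abcg8. Promoter CpG content was set beside detection as a description. Where a member had several RefSeq windows, the one richest in CpG was taken. The median was 18 CpG for the 23 tested members with an entry and 6 for the 17 untested members. Over all windows, taken without such a choice, the median was 6. The ranges overlapped, 0 to 35 against 1 to 20, and Abcb1a (0 CpG) and Abca13 (3 CpG) were tested members with few. For Abcb1a, the only window belongs to a RefSeq start 92986 bases upstream of the GENCODE gene start.

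Genes on either side of Abcb1a, Abcb1b and Abcb4 moved with them. Of the 9 neighbours listed, 8 were higher in MPC-PTX and 0 lower, with a median log2 fold change of 1.49 and values from 0.55 (Steap4, edgeR adjusted p = 0.252) to 1.98 (Adam22). The first 20 Mb of chromosome 5 held 38 tested genes besides the ABC members, with the 9 neighbours among them. Of these 38, 29 were higher and 1 lower, with a median log2 fold change of 1.03. Abcb1a, Abcb1b and Abcb4 stood at 2.19, 2.07 and 3.50. Abcf2 and Abcb8 lie between 20 and 30 Mb, where 29 of 45 tested genes, Abcf2 among them but not Abcb8, were higher and 0 lower, with a median of 0.43. The 45 include Abcf2 and Abcb8. Over all tested genes, 14.1% were higher and 15.6% lower, with a median log2 fold change of 0.04.

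Transcription factors and receptors known to regulate ABC genes gave few calls: 1 of 26 tested was higher and 5 lower, below the 14.1% higher and near the 15.6% lower of all tested genes. The 2 xenobiotic receptors were at or near 0, with 0 counts of Nr1i3 in every library and at most 2 of Nr1i2. Hnf4a, a nuclear receptor of gut and liver epithelium, had 927, 1442 and 1524 counts in MPC and 24, 19 and 16 in MPC-PTX (log2 fold change -6.11, SE 0.23, edgeR adjusted p = 9.23e-06), the only tested regulator that passed with an absolute log2 fold change above 1. The partner lists of the substrate groups are read against the same 14.1% and 15.6%. For sterol efflux, 1 of 9 tested was higher and 4 lower: Soat1, which esterifies cholesterol, had 1215, 1571 and 1860 counts and then 630, 530 and 412 (log2 fold change -1.64), Mylip, which degrades the LDL receptor, a log2 fold change of -1.79, and Cyp27a1, a sterol hydroxylase, 0, 4 and 0 counts and then 30, 23 and 22 (edgeR adjusted p = 0.000179, 0.0424 and 0.00550). Cyp27a1 passed the filter on low counts through the MPC-PTX libraries only, so it had to differ to some degree. Of the 10 tested peptide-loading partners of TAP, 1 was higher and 1 lower, of the 9 peroxisomal partners of ABCD 1 and 1, of the 12 heme and iron-sulfur partners 1 and 0, of the 6 chloride and bicarbonate partners 0 and 1, and of the 6 ribosome recycling partners 1 and 1. The peroxisomal gene that was higher, Crot (log2 fold change 1.23, edgeR adjusted p = 0.000262), is also a neighbour of Abcb4 on chromosome 5.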

How the data were processed

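The members and all gene lists were chosen with earlier results of these data known. RNA-seq libraries were made from poly-A RNA, and the authors filtered reads with fastp 0.22.0 (submitters' processing notes), mapped them with HISAT2 and deposited raw counts per gene, not normalized. The counting tool, genome build, annotation and strand setting are not given in the sources used here. The 6 sample tables equalled the series table.

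From the deposited counts, genes were filtered with filterByExpr (minimum count 10), libraries scaled with TMM, and 11795 genes tested with edgeR 4.0.16 (glmQLFit, robust, and glmQLFTest, R 4.3.3) without covariates, with Benjamini-Hochberg adjustment. SE is the log2 fold change over the root of the quasi-likelihood F. The fold rule takes its thresholds from the study's methods, which applied them to DESeq, and applies them here to edgeR's fold changes and p-values. CPM were computed on TMM-scaled library sizes, and shares, ratios of depth-scaled counts and floors on raw totals. On simulated counts of 11699 genes for this comparison, 198 of them shifted by 1.5 on the log2 scale, edgeR recovered 94.4%, and 6.03% of calls were false. DESeq2 1.42.0 recovered 94.4% with 16.1% false. The simulation gave a gene the same dispersion in both lines and drew genes independently. It held neither the unequal spread of the 2 lines nor the shift of MPC replicate 3 with GC content and length. These rates therefore need not hold for the data.

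Positions, lengths and GC content of all 53 members were looked up by Ensembl identifier in GENCODE M21 (GRCm38), and promoters from RefSeq (GRCm38.p6), matched by symbol for 40. A few members are not reported here by name, although counts and sums over members hold them. The others are named: those with an adjusted p below 0.05 with each library's counts, other tested members with log2 fold change and adjusted p, and untested members by their counts. Of partner lists, genes past that threshold with an absolute log2 fold change above 1 are named, and Steap4, Adam22 and Crot among the neighbours. Exact permutation tests were two-sided. Intervals are at 95%; without molecular identifiers PCR copies count as separate reads, so intervals and floors hold for counting error only. Alternatives were DESeq2, its size factors or library size alone in edgeR, no filter, at least 10 counts in every library, a replicate block, each library left out and, chosen after seeing the data, a loess correction for GC content and length and, for a share, the length of all exons.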

Additional observations from a re-analysis of the deposited data

How the results depend on the processing

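Of the 18 called members, 9 passed in every setting in which they were tested (Abca4, Abca7, Abcb1a, Abcb1b, Abcb4, Abcc3, Abcc5, Abcg2 and Cftr), 9 lost the call under at least 1 of 13 settings, and 0 changed direction. In the main fit, Abcb4, Cftr and Abcg2 passed the filter on low counts through the line where they were higher. Abcb4, Cftr, Abca13 and Abcg2 had no value when at least 10 counts were required in every library, where 27 members were tested and 2 in place of 5 were higher by the fold rule, since fewer genes were tested. Leaving out 1 library gave 4 to 10 members higher and 5 to 12 lower, and by the fold rule 5 to 6 higher and 3 to 4 lower. The difference in the share of Abcb1a and Abcb1b was 9.34 to 9.67 percentage points with 1 library left out and 7.51 per kilobase of all exons. The Abcb1a split differed by 0.536 to 2.30 points. DESeq2 gave 7 higher and 9 lower, and the GC and length correction 11 and 9. Of the 13 members not called, 7 passed under at least 1 setting. Near 0, Abcc4 turned to -0.024 with DESeq2 and with its size factors, to -0.022 with at least 10 counts in every library and to -0.029 with the GC and length correction, and ran from -0.049 to 0.056 with 1 library left out (below 0 without MPC replicate 1, MPC replicate 3 or MPC-PTX replicate 3). Abca12 turned to -0.087 with that correction, and Abca2 ran from -0.038 to 0.14 with 1 library left out (below 0 without MPC replicate 2 or 3). The cause was not tested. The deviations of same-numbered libraries correlated at 0.15, -0.02 and 0.17 for numbers 1, 2 and 3, so the numbers were not taken to pair them, and with a replicate block 9 members were higher and 8 lower. Depth limits the 15 untested members with counts, each at 9 or fewer in any library.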

Other observations

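Egr1, an immediate early transcription factor on the list of ABC regulators, had 7026 counts in MPC replicate 1, 865 and 955 in MPC replicates 2 and 3, and 7269, 6888 and 5316 in MPC-PTX, so 1 MPC library lay with the MPC-PTX libraries (edgeR adjusted p = 0.384). Mylip was low in the same library, with 23 counts against 90 and 100 in the other MPC libraries and 28, 24 and 13 in MPC-PTX, and the call of Mylip rests on these unlike libraries. Abcg1 was highest in that library among the MPC libraries, at 488 counts against 317 and 326.

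Ctse and Anxa10, genes of gastric surface cells, had 4387, 6009 and 5850 and 1681, 2912 and 3059 counts in MPC and 30, 29 and 32 and 10, 4 and 6 in MPC-PTX. Their log2 fold changes were -7.54 and -8.62, larger in size than that of any ABC member tested here. Anxa10 passed the filter on low counts through the MPC libraries only, so it had to differ to some degree. Sox2, a factor of the foregut and stomach, was higher, with 883, 994 and 1192 counts in MPC and 1706, 1546 and 1168 in MPC-PTX (log2 fold change 0.45, edgeR adjusted p = 0.00897). Of the 15 gastric markers in the count table, 5 were tested, with 2 higher and 3 lower. Bhlha15, low in both lines, had 5, 6 and 5 counts and then 18, 22 and 15 (log2 fold change 1.68, edgeR adjusted p = 0.00761). Bhlha15 passed the filter on low counts through the MPC-PTX libraries only, so it had to differ to some degree. Muc1 had a log2 fold change of -0.29 (edgeR adjusted p = 0.0136).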
